A study of Rattus norvegicus with 2 samples.

Results

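A group of 8 genes of antigen presentation and interferon response was described in bmMSCs, the mesenchymal stem cells of rat bone marrow that grow attached to plastic, after transfection with Pdx1 and Ngn3. They are the 8 rows, of 2325 in the deposited table, that carry the symbols Cd74, RT1-Db1 and RT1-DMb (class II presentation) or Irf9, Gbp2, Gbp5, Parp9 and Trim21 (interferon response). The transfected group was 1 library of bmMSCs collected 10 days after co-transfection with both factors, and the untransfected group was 1 library of bmMSCs that received neither and served as the negative control. Both libraries came from Sprague-Dawley rats at passage 3 to 5. The control underwent no transfection, so the procedure and the introduced genes cannot be told apart. No collection time is given for the control, so a difference in time in culture cannot be told apart from them either. Neither the labels nor the file give the number of animals, the vector or the share of cells transfected. The table holds only genes that the authors had selected for change. The 8 genes were chosen by their read counts and ratios between these same libraries, so their levels, folds and directions are given as a description, without a test.

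Class II molecules are pairs of an alpha and a beta chain that display peptides from engulfed proteins on antigen-presenting cells. The invariant chain, encoded by Cd74, fills their groove during assembly, and the DM molecule later exchanges its remnant for a peptide. Interferons signal through Janus kinases. In the type I pathway a complex that contains IRF9 binds the interferon-stimulated response element (ISRE) of its target genes, whereas interferon gamma acts through the gamma-activated site (GAS) and also induces class II genes by way of the transactivator CIITA. Class II promoters carry a conserved X box and Y box, bound by RFX and NF-Y. Cultured mesenchymal stem cells are known for little class II at their surface, which interferon gamma can raise.

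The promoters of these genes are shown first, with the motifs by which class II and interferon-induced genes are known. The genes were picked as members of these classes, so the matches illustrate the classes and support nothing about the libraries. All sequences are RefSeq windows of the GRCr8 assembly, from 250 bases before to 50 bases after the start of the gene, 5′ to 3′ along the gene's strand. A window was given for 7 of the 8 genes, RT1-DMb being the exception. Capitals mark the letters TAGCAAC (core of the X box) and CTGATTGG (Y box).
Cd74: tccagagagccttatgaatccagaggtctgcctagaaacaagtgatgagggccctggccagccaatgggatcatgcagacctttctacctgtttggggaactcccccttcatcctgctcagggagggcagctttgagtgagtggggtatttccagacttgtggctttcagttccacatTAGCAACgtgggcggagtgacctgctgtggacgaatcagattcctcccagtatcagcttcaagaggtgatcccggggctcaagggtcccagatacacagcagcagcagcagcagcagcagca
RT1-Db1: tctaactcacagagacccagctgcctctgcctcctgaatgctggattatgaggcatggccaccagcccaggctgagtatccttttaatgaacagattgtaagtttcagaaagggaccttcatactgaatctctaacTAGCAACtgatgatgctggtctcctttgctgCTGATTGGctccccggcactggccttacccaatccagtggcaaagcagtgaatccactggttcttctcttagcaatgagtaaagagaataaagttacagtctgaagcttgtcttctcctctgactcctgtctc
The Cd74 window lies at chr18:56526956-56527255 on the plus strand and the RT1-Db1 window at chr20:4560113-4560412 on the minus strand. The X box core stood 72 to 66 bases before the start of Cd74. In RT1-Db1 it stood 114 to 108 bases before the start, followed by a Y box 83 to 76 bases before it. An X box core occurred on either strand in 3.58% of all 33469 promoters of this length and a Y box in 3.50%, and both were present in 0.0896%. The X box core also occurred in Parp9, 188 to 182 bases before its start.

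For the interferon genes, capitals mark the ISRE core GAAANNGAAA, which reads TTTCNNTTTC on the other strand.
Gbp2: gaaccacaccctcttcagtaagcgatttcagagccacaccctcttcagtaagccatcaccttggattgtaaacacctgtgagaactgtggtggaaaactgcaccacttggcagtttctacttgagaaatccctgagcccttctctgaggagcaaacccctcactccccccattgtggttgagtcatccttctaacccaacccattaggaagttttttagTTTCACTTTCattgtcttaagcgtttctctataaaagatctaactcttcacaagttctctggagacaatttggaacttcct
Gbp5: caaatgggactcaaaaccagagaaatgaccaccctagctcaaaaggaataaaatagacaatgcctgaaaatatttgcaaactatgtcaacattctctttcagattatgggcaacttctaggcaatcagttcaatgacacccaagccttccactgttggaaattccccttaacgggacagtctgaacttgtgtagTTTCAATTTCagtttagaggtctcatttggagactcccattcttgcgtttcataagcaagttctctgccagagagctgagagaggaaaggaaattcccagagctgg
Trim21: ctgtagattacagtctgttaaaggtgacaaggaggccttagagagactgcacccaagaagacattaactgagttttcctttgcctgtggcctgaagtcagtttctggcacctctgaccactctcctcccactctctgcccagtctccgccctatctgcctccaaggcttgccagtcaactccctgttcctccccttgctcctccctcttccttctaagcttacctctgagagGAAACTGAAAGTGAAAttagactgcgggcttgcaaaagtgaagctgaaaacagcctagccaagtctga
These windows lie at chr2:234005477-234005776 (plus strand), chr2:233910749-233911048 (plus strand) and chr1:166399322-166399621 (minus strand). The core stood 31 to 22 bases before the start of Gbp2 and 56 to 47 bases before that of Gbp5. Trim21 had overlapping copies, 18 to 9 and 12 to 3 bases before its start. Thus 3 of the 5 interferon genes held the core, against 3.92% of all promoters and 2.57% of the 1286 listed genes with a window. Irf9 held a GAS, TTCNNNGAA, 99 to 91 bases before its start, a motif present in 8.87% of all promoters. The ISRE core thus occurred both in members with more reads in transfected cells and in Trim21, which had fewer. The motifs are textbook forms searched on both strands after the windows had been read. A match is a run of letters and not evidence of binding.

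**Figure D1:**
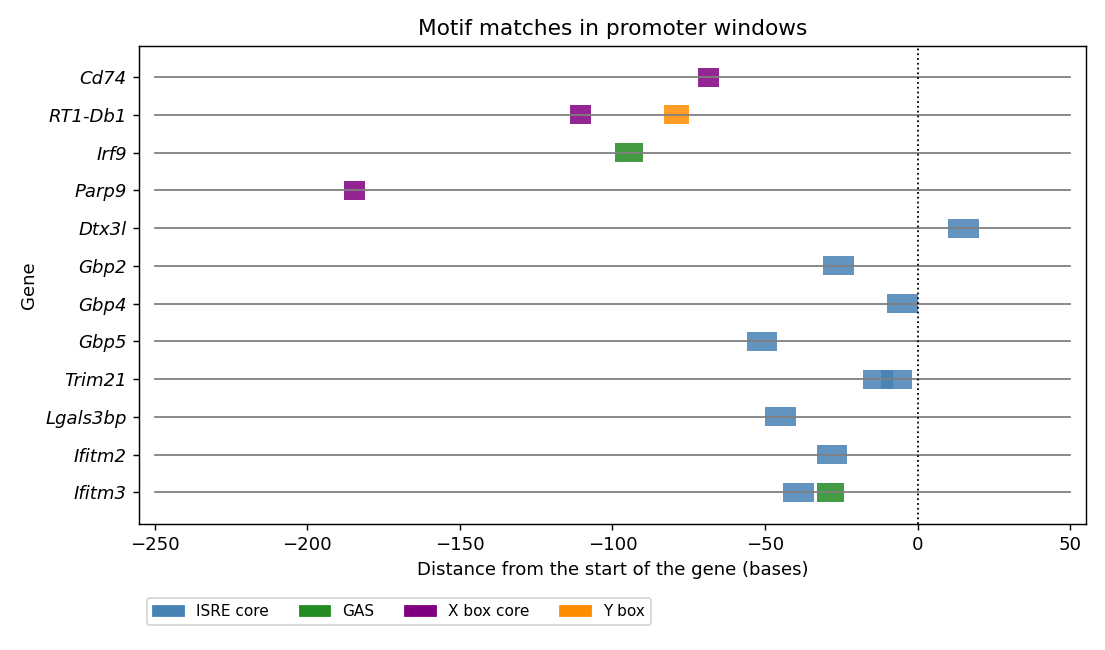
Motif matches (coloured blocks) in the promoter windows of 12 class II and interferon-induced genes, by distance in bases from the start of the gene. The ISRE core lies between 56 bases before and 19 bases after the start in the 8 genes that hold it, while Cd74 and RT1-Db1 hold an X box core.

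Libraries were compared as reads per library total. The totals implied by the deposited reads, lengths and RPKM (reads per kilobase of gene and per 1000000 reads of the library) were 7415094 reads for the transfected and 7800831 for the untransfected library. Each ratio has an exact 95% interval that covers counting error only, since 1 library per condition gives no spread between cultures. A gene was called higher or lower at a ratio of at least 2 with an interval excluding 1, which by the authors' selection took in every listed gene. Of all 2325 genes, 63.5% were called higher and 36.5% lower in the transfected library, so direction alone separates genes in this table. Of the introduced genes, Pdx1 had 565 reads in the transfected and 0 in the untransfected library, as labelled, and Neurog3 was not analysed here.

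All 3 class II genes were nearly without reads in transfected cells and lower than in untransfected cells. Cd74, the invariant chain, had 5 reads in transfected and 96 in untransfected cells, or 0.477 RPKM (interval 0.155 to 1.11) against 8.70 RPKM (7.04 to 10.6). It was 18.3-fold lower, with an interval of 7.56 to 57.5. RT1-Db1 encodes a beta chain of the RT1-D class II molecule, which presents the peptide. It had 1 read in transfected and 32 reads in untransfected cells (0.104 and 3.17 RPKM) and was 30.4-fold lower, with a wide interval of 5.08 to 1239. RT1-DMb, the beta chain of the peptide exchanger DM, had 4 reads in transfected and 37 in untransfected cells (0.409 and 3.59 RPKM). It was 8.79-fold lower (3.16 to 34.0). In transfected cells the Poisson intervals of the 3 RPKM levels overlapped one another, so no order among them can be read there.

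Together the 3 class II genes had 10 reads in transfected and 165 in untransfected cells, 15.7-fold lower (interval 8.32 to 33.3). The level summed over the 3 genes was 0.989 RPKM in transfected cells and 15.5 RPKM in untransfected cells. Cd74 had the highest level per length of the 3 in untransfected cells, above the other two beyond counting error, while RT1-Db1 and RT1-DMb did not differ beyond their intervals. By the size of the ratio, RT1-Db1 stood among the 10 largest decreases of the 849 lower genes, Cd74 among 33 and RT1-DMb among 107. The first of these rests on 1 transfected read. Ranked by the interval bound nearest to 1 instead, Cd74 was at place 37, RT1-Db1 at 93 and RT1-DMb at 213. The count of 3 lower among 3 stands beside 36.5% lower over all genes. Under the stricter call, in which the interval bound nearest to 1 is itself at least 2-fold, all 3 remained lower, against 23.7% of all genes. In bulk RNA, fewer class II-positive cells and less class II RNA per cell cannot be told apart.

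**Figure D2:**
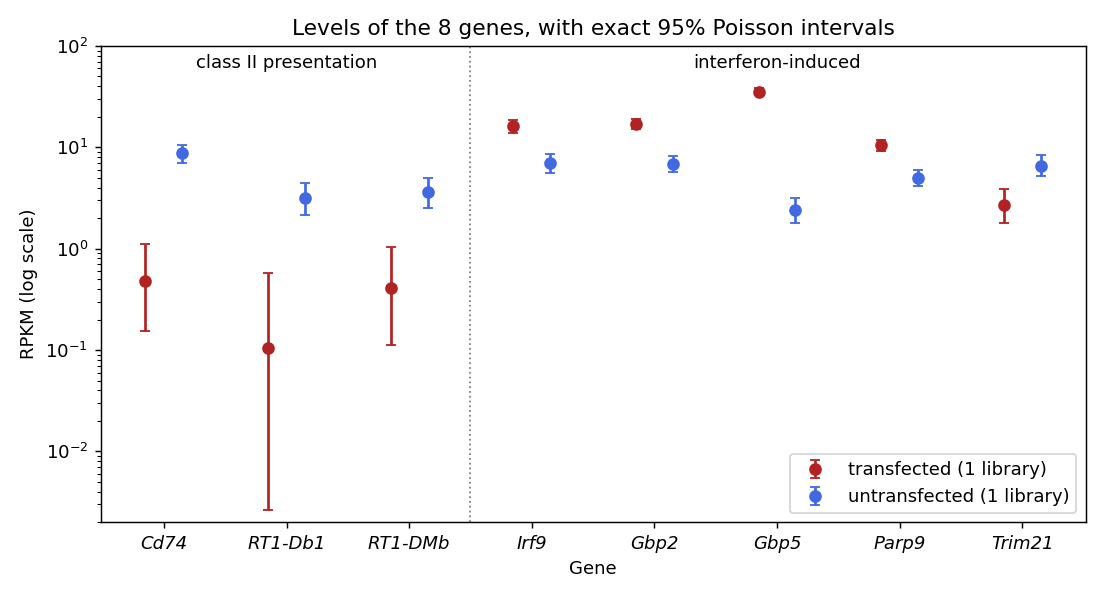
Level of each of the 8 genes in RPKM (log axis) in the transfected (red, left of each pair) and untransfected (blue) library, with exact 95% Poisson intervals for counting error. The 3 class II genes lie below 0.5 RPKM in the transfected library and above 3 in the untransfected one, whereas 4 of the 5 interferon genes are higher in the transfected library and Trim21 is lower.

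Of the 5 interferon genes 4 were higher in transfected cells, and 1 of them by far more than the rest. Gbp5, a guanylate-binding GTPase that in mice promotes inflammasome activity, had 739 reads in transfected and 53 in untransfected cells. Its level was 35.5 RPKM (interval 33.0 to 38.1) in transfected cells against 2.42 RPKM (1.81 to 3.16) in untransfected cells, 14.7-fold higher (11.1 to 19.8). Among the 1476 higher genes, 133 had a ratio at least as large. Gbp2, a GTPase of the same family, had 304 and 128 reads in transfected and untransfected cells (17.1 and 6.85 RPKM), 2.50-fold higher (2.03 to 3.10). Per length, Gbp5 was thus above Gbp2 in transfected cells and below it in untransfected cells, with intervals that did not overlap in either library.

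Irf9, the DNA-binding subunit of the type I interferon complex, had 195 reads in transfected and 89 in untransfected cells, or 16.1 and 7.00 RPKM. It was 2.30-fold higher (1.78 to 3.00). Parp9, an ADP-ribosyltransferase family member that in human cells works in a complex with the ubiquitin ligase Dtx3l, had 248 and 124 reads (10.5 and 5.00 RPKM) in transfected and untransfected cells, 2.10-fold higher (1.69 to 2.63). Its log2 ratio of 1.07 turned to -0.13 under median-of-ratios scaling, while Irf9 stayed just above 0 (0.0032). These 3 smaller increases lay near the lower edge of what the table admits: 1369 of the 1476 higher genes had at least the ratio of Parp9, 1208 that of Irf9 and 1078 that of Gbp2. The smallest absolute log2 ratio in the authors' deposited table was 1.00, and genes below it were not analysed here.

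Trim21, in human and mouse cells a cytosolic antibody receptor and ubiquitin ligase that interferons induce, went the other way. It had 28 reads in transfected and 73 in untransfected cells, or 2.67 RPKM (interval 1.77 to 3.85) against 6.61 RPKM (5.18 to 8.31). It was 2.48-fold lower (1.58 to 3.98), a smaller decrease than that of any of the 3 class II genes, although its interval overlapped that of RT1-DMb. The interferon count of 4 higher among 5 stands beside 63.5% higher over all genes, and nothing is read from a share so near that background. With the stricter call, 2 of the 5 (Gbp2 and Gbp5) stayed higher, against 41.7% of all genes.

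Summed over the 5 interferon genes, 1514 reads in transfected cells stood against 467 in untransfected cells, 3.41-fold higher (interval 3.07 to 3.79). Gbp5 supplied 48.8% of those reads in transfected cells and 11.3% in untransfected cells. Without Gbp5 the sum was 775 against 414 reads, 1.97-fold higher (1.75 to 2.22), so the summed increase above 2-fold rested on that gene. The median log2 ratio was 1.20 for the 5 interferon genes and -4.19 for the 3 class II genes, beside 1.24 for all listed genes.

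**Figure D3:**
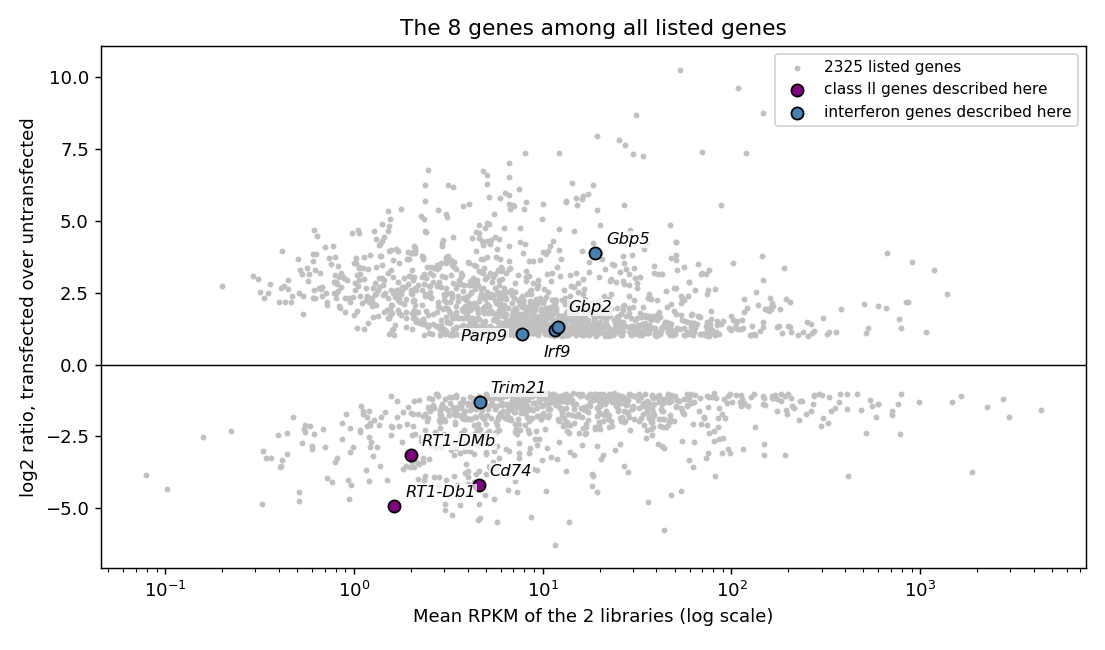
Log2 ratio of transfected over untransfected cells against the mean RPKM of both libraries (log axis) for the 2325 listed genes (grey), with the 3 class II genes in purple and the 5 interferon genes in blue. The empty band between -1 and 1 is the authors' selection. The class II genes lie at -3.14 or below, Gbp5 at 3.87, and Irf9, Gbp2 and Parp9 close to the band.

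The remaining genes of each pathway came from lists chosen with earlier results of these data known. Of 24 class II presentation genes, 4 were listed, the 3 above and Cd40. Cd40, a co-stimulatory receptor of antigen-presenting cells, was higher at 32 reads in transfected and 6 in untransfected cells (5.61-fold, interval 2.31 to 16.4). The transactivator Ciita, the RFX subunits and the class II alpha chains were not analysed here. RT1-Db1 and RT1-DMb lie on rat chromosome 20, separated by 7 other protein-coding RefSeq genes, of which 0 were listed. RT1-Db1 belongs to a family of similar beta chain genes, and no source used here says how reads common to several genes were counted, so its value is uncertain.

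The authors' annotation names antigen processing in 6 rows, 5 of them called higher and 1 lower, beside 63.5% and 36.5% of all genes. The 3 class II genes carry an unnamed code there and are not among the 6. The 6 rows hold 5 class I or class I-like genes. With median-of-ratios scaling 0 of these 5 were still called higher, beside 22.0% of all genes. RT1-M3-1, a nonclassical class I gene whose mouse counterpart presents formylated peptides, had 95 reads in transfected and 29 in untransfected cells and was 3.45-fold higher (2.25 to 5.42). Mr1, which in human cells presents microbial vitamin metabolites, was 3.37-fold higher (2.21 to 5.26) at 96 and 30 reads in transfected and untransfected cells. Hfe, a class I-like regulator of iron uptake, was 3.54-fold higher (1.77 to 7.69) at 37 against 11 reads. Cd1d1, which presents lipids, was 2.36-fold higher (1.62 to 3.50). RT1-Cl, a class Ib locus, was 2.22-fold higher (1.67 to 2.97) at 156 and 74 reads, and turned to a log2 ratio of -0.05 under median-of-ratios scaling. Its row's best protein match in the table is a class Ia gene, so its reads may be shared within the family. The lower gene, Thbs1, is the matrix protein thrombospondin 1 and not a presenting molecule. In the wider annotation of the major histocompatibility complex, a set named after its values were seen, 7 rows were listed, and the same 5 class I-type genes were higher while RT1-Db1 and RT1-DMb were lower. Of the 39 genes in the fixed class I list, RT1-M3-1 was the 1 listed, and B2m, Tap1, Psmb8 and the other genes of peptide supply were not analysed here.

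Of 76 interferon-induced genes, 11 were listed, 10 called higher and 1 (Trim21) lower, beside 63.5% and 36.5% of all genes. The median log2 ratio of the 11 was 1.20, beside 1.24 over all listed genes. Outside the 5 genes described above, 6 genes of this list were in the table and all 6 were called higher. Ifitm2, whose human counterpart is a membrane protein that restricts virus entry, had the highest level, at 324 RPKM in transfected and 67.0 RPKM in untransfected cells (4.84-fold, interval 4.36 to 5.38). Its relative Ifitm1 was 3.26-fold higher (1.94 to 5.70). Ifitm3, also of that family, was 2.06-fold higher (1.58 to 2.69), and the 3 genes are similar enough that their reads may be shared. Gbp4, a further guanylate-binding GTPase named after its values were seen, had 53 reads in transfected and 11 in untransfected cells (5.07-fold, 2.62 to 10.8). Lgals3bp, a secreted glycoprotein that binds galectins, was 2.29-fold higher (2.11 to 2.49) at 109 and 47.7 RPKM. Under median-of-ratios scaling Lgals3bp, Ifitm3, Dtx3l and Parp9 turned below 0, which left 6 of the 11 (54.5%) above it, beside 52.1% of all listed genes. That scaling puts the median log2 ratio of the listed genes with reads in both libraries at 0. The 52.1% therefore follows from the scaling, and nothing is read from the comparison.

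The guanylate-binding genes lie together on rat chromosome 2, where Gbp4 is the direct RefSeq neighbour of Gbp2. The 2 genes that separate Gbp2 from Gbp5, both listed, are Gbp4 and 1 further gene whose ratio is not described here. Dtx3l, the partner of Parp9, had 251 reads in transfected and 132 in untransfected cells, 2.0-fold higher (1.61 to 2.49) and close to Parp9 in its ratio. Parp9 and Dtx3l are neighbours on chromosome 11 on opposite strands, and their annotated bodies overlap. The protocols name no strand-marking step, so reads of the 2 genes in the overlap cannot be told apart. Across the interferon-induced list, 8 of the 10 genes with a promoter window held the ISRE core, among them Gbp4, Dtx3l, Lgals3bp, Ifitm2 and Ifitm3, against 2.65% of the higher and 2.43% of the lower listed genes with a window. The list was drawn up from genes known to respond to interferon, so this share describes the list and not the libraries.

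Of the 31 genes in the interferon signalling list, 5 were listed and all 5 were called higher, beside 63.5% of all genes. Their median log2 ratio of 1.22 lay at that of all genes (1.24). Jak1, the kinase shared by the type I and type II interferon receptors, was 2.33-fold higher (2.16 to 2.50) at 2378 reads in transfected and 1075 in untransfected cells. Jak2, used by the interferon gamma receptor, was 2.20-fold higher (1.92 to 2.53), and its log2 ratio turned to -0.06 under median-of-ratios scaling. Irf3, which switches on interferon genes after nucleic acid sensing, was 2.45-fold higher (2.15 to 2.78). Socs3, an inhibitor of Janus kinase signalling by cytokine receptors, had 70 reads in transfected and 7 in untransfected cells and was 10.5-fold higher (4.85 to 27.1). The fifth was Irf9, which is also in the interferon-induced list. The interferon receptors and the interferons themselves were not analysed here.

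**Figure D4:**
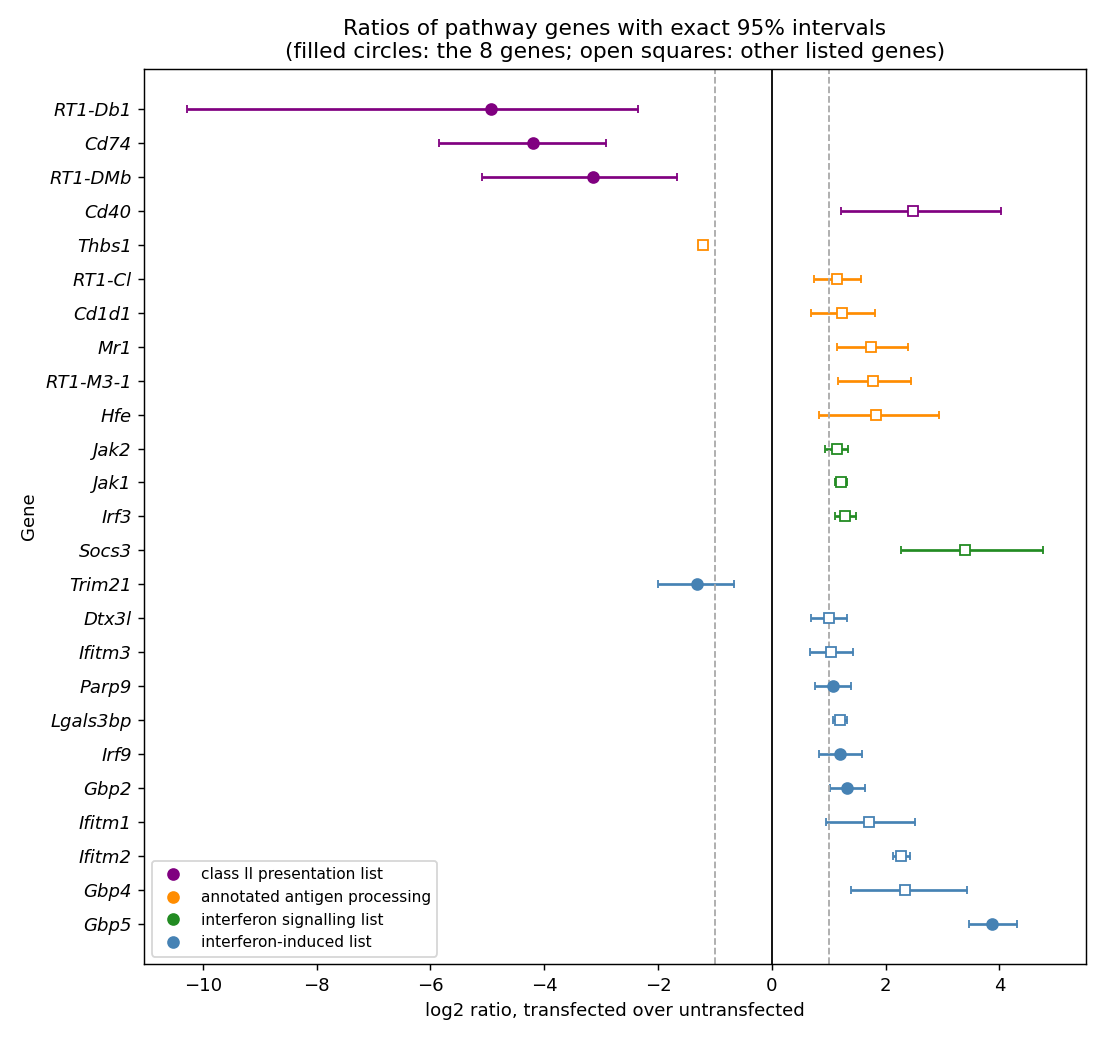
Log2 ratio of transfected over untransfected cells with exact 95% counting intervals for the listed genes of the class II, antigen processing, interferon signalling and interferon-induced groups (filled circles for the 8 genes, open squares for the others). Dashed lines mark 2-fold. Apart from Thbs1 and Trim21, the genes outside the class II trio lie to the right of 0, with Gbp5 and Socs3 farthest.

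Markers of the cells that normally express class II were checked, since marrow cultures can hold blood cells. Of 57 leukocyte markers, 3 were listed, and none of the 9 B cell or the 8 dendritic cell markers was among them. Lcp1, an actin bundler of leukocytes, was lower with the class II genes, at 12 reads in transfected and 122 in untransfected cells (9.66-fold lower, interval 5.34 to 19.2). Cd68, a lysosomal macrophage protein, had 26 reads in transfected and 5 in untransfected cells and was 5.47-fold higher (2.07 to 18.2). Cd4, found on helper T cells and rat macrophages, had 23 reads in transfected and 0 in untransfected cells. It was at least 6.05-fold higher by the exact lower limit, and 8.07-fold against a floor of 3 reads, a less strict bound. The summed level of the 3 markers was 5.11 RPKM in transfected and 5.08 RPKM in untransfected cells. Lcp1 fell while Cd68 and Cd4 rose, so the near-equal sums do not show an unchanged leukocyte content. The marker lists are not complete, and other genes known from leukocytes were listed. Among them Cd180, Cd69, Ms4a6a and Gzmb were higher (log2 ratios 5.95, 5.24, 3.98 and 3.83) and Lsp1 was lower (-2.12). The part of leukocytes in the class II result was not tested, and the levels of Ptprc, Cd79a and Itgax were not analysed here. Of 17 markers of mesenchymal stem cells, 11 were listed, 5 higher and 6 lower, beside 63.5% and 36.5% of all genes. Both libraries had reads for all 11, but their levels moved both ways, from 23.3-fold lower (Cspg4) to 11.2-fold higher (Kitlg) in transfected cells. The median log2 ratio of the 11 was -1.03, beside 1.24 for all listed genes.

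The genes closest to Cd74 and Gbp5 in level over the 2 libraries were sought among 1508 other named rat genes. For Cd74 they were the palmitoyltransferase Zdhhc2 (0.485 RPKM in transfected and 8.13 RPKM in untransfected cells, a distance of 0.11 on the log2 scale), Kbtbd10 (0.29) and the cation channel Trpc4 (0.30). For Gbp5 they were the Wnt-binding protein Sfrp2 (37.5 and 2.56 RPKM in transfected and untransfected cells, a distance of 0.12), the integrin subunit Itga4 (0.13) and the BMP antagonist Chrd (0.23). None of these genes belongs to the lists above, and with 2 libraries such likeness describes only a pair of levels.

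The contrast between the groups was read under other scalings. Scaling by TMM and by median of ratios, both computed on genes selected for change, shifted every log2 ratio by -0.78 and -1.20. The share of higher genes among all calls was 63.5% with library totals, 46.4% with TMM and 37.6% with median of ratios. Cd74, RT1-Db1 and RT1-DMb were at -5.39, -6.13 and -4.34 with median of ratios, and Trim21 was at -2.51. Gbp5 remained called higher, at 3.10 and 2.67. Gbp2, Irf9 and Parp9 were no longer called under either scaling. Each scaling adds 1 constant to all log2 ratios and both constants were negative, so lower genes could only stay lower.

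**Figure D5:**
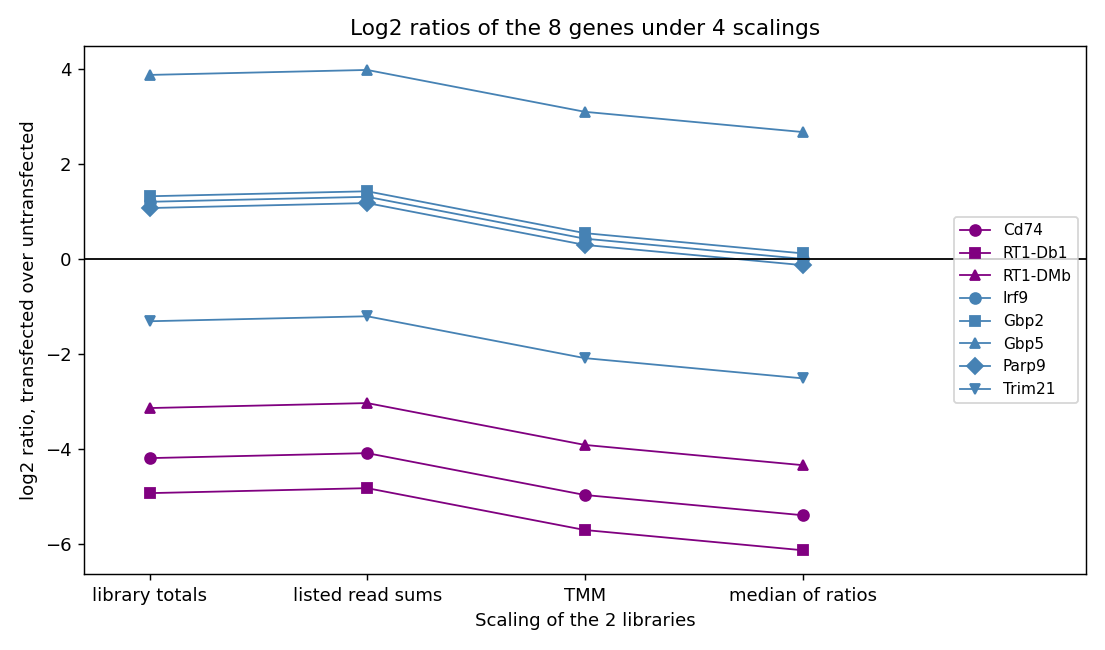
Log2 ratio of transfected over untransfected cells for the 8 genes under 4 scalings of the libraries (class II genes purple, interferon genes blue). Gbp5 stays above 2 and the class II genes below -3 throughout, while Irf9, Gbp2 and Parp9 reach about 0 with median of ratios.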

How the data were processed

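RNA sequencing compared 1 transfected with 1 untransfected library. Per the labels' protocols, RNA was selected with oligo(dT) beads, fragmented and primed with random hexamers, and sequenced on an Illumina GA. Genome build rn4 is named in the submitters' processing notes. Neither an aligner nor a counting tool is given in the sources used here.

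The authors deposited whole-number read counts per gene without scaling, and RPKM that they computed from counts, gene length and library total, with 0.001 written for 0 reads. The authors' deposited log2 ratio is transfected over untransfected RPKM. A p-value and false discovery rate were also deposited by the authors, from a test that is not named here. They compare 2 libraries and were not used. The table is the authors' selection, with a largest false discovery rate of 0.000996 in the authors' deposited table. Its listed genes hold 20.2% of the transfected and 21.7% of the untransfected reads.

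Library totals were recomputed from counts, length and RPKM. They were equal within 0.01% in all rows of the transfected library and all but 1 row of the untransfected library. Ratios have Clopper-Pearson intervals of the binomial share of both counts, and RPKM levels have exact Poisson intervals (scipy 1.17.1). They cover counting error only, because each condition has 1 library. PCR copies were not marked by molecular identifiers, so even the counting error may be larger than these intervals show. With 1 library per condition no test across replicates was made. All 8 identifiers matched RefSeq genes with the same symbol, and 8 of 8 lengths equalled those in the descriptions. TMM factors came from edgeR 4.0.16. The interval code was tested on simulated data.

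The members and lists were chosen with earlier results of these data known. The text names the 8 genes, the listed genes of the class II, class I, interferon-induced and interferon signalling lists (the 10 with most reads where more were listed) and of the antigen processing annotation, the listed leukocyte markers, and the 3 genes nearest in level (0.5 reads added, Euclidean distance of log2 RPKM) to Cd74 and to Gbp5. Pdx1 and Gbp4, the eleventh by reads in its list, were named besides. Cspg4, Kitlg, Plscr1, Ifi204, Ly6e, Cd180, Cd69, Ms4a6a, Gzmb and Lsp1 were named after their values were seen. Motifs were chosen after the promoters had been read. Alternatives were other scalings, the Wilson interval, an assumed biological variation, log2(RPKM + 1), a stricter call and a minimum of 30 reads.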

Additional observations from a re-analysis of the deposited data

How the results depend on the processing

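The count of 3 lower class II genes was kept under all 8 alternatives and the direction and call of each under the 7 run per gene, as was the direction and call of their summed reads under the 6 that apply. TMM and median of ratios lower every ratio, so they could not end these calls. Beside the 3 of 3, 36.5% of all 2325 genes were called lower with TMM and with median of ratios. That share was 17.1% with assumed variation and 23.7% with the stricter call. No paired analysis was possible because each condition has 1 library. For the interferon genes, log2 ratios were 0.43 (Irf9), 0.54 (Gbp2) and 0.30 (Parp9) with TMM and 0.0032, 0.12 and -0.13 with median of ratios, and none of the 3 was then called. This follows from the shift of all ratios. When a biological coefficient of variation of 0.4 was assumed, Irf9 (1.20), Gbp2 (1.32), Parp9 (1.07) and Trim21 (-1.31) lost their calls. With the stricter call Irf9 (1.20), Parp9 (1.07) and Trim21 (-1.31) lost theirs. Parp9 was at 0.94 as log2(RPKM + 1). The count of higher interferon members was therefore 1 with TMM, 1 with median of ratios, 1 with assumed variation and 2 with the stricter call. Their summed log2 ratio was 0.99 with TMM, 0.57 with median of ratios and 0.98 without Gbp5, the last chosen after the data were seen, against 1.77.

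The 10 higher genes of the interferon-induced list became 3, 3, 3 and 5 in the order just given, while 31.6%, 22.0%, 30.4% and 41.7% of all 2325 genes were called higher, and its 1 lower gene became 0 with assumed variation and 0 with the stricter call. The 5 higher signalling genes became 1, 1, 1 and 3. The 5 higher genes annotated with antigen processing became 2, 0, 2 and 2, and the lower one was not called with assumed variation (0). The 1 higher class I gene was not called with median of ratios (0). Of the 182 alternative values, 134 kept their direction and their side of the threshold or moved little. The class II genes had 1 to 5 transfected reads each, and their ratios span wide intervals.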
